A study of Rattus norvegicus with 18 samples.

Results

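The circadian clock genes examined here are Arntl, Clock, Per1, Per2, Per3, Nr1d1, Nr1d2, Dbp, Bhlhe40 and Bhlhe41, chosen by name from the deposited gene tables. They are 10 of 32623 genes, and each symbol matched 1 row. Levels were read pup by pup in the prefrontal cortex (PFC) of 18 Sprague Dawley rat pups at postnatal day 14 (P14). Dams were dosed by oral gavage, and each group held 6 pups. SAL pups came from dams given saline. PNO pups came from dams given oxycodone (oxy) at 15 mg/kg/day from parturition until weaning, and were exposed through the milk alone. IUO pups came from dams started at 10 mg/kg/day and raised to 15 mg/kg/day before mating, with dosing kept up through gestation and until weaning. The dam and sex of each pup and the clock time of collection are not given in the sources used here, although housing was on a light-dark cycle. The p-values therefore measure the spread between pups, some of which may be littermates.

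The mammalian clock is a transcriptional feedback loop that runs in most cells, including cortical neurons and glia. CLOCK and ARNTL (also called BMAL1) pair and bind E-box sequences to switch on the Per and Cry genes, whose proteins return to the nucleus and block the pair. In a further loop the nuclear receptors NR1D1 and NR1D2 (REV-ERBs) repress Arntl, while DBP drives D-box genes and BHLHE40 and BHLHE41 compete for the E-box. In adult tissue sampled over the day, Arntl is known to peak at about the opposite time to Dbp, Nr1d1 and the Per genes. Per1 and Bhlhe40 also respond quickly to stimuli such as neuronal activity.

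Across the 18 libraries the expected counts summed to between 18381819 and 26084780. Some libraries stood apart from the rest. The first principal component held 26.8% of the variance over tested genes, and SAL replicate 6 lay farthest out on it at -0.52, against -0.36 to 0.38 in the other pups. Summed CPM (counts scaled to library size) of 8 striatal neuron markers ran from 163 to 1909 between pups, of 5 choroid plexus markers from 3.78 to 976, and of 6 myelin markers from 1660 to 14322. All 7 neuronal markers were expressed, with a summed level of 2724 to 5074 CPM. In bulk tissue, fewer cells of a type and less RNA per cell cannot be told apart.

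Promoter windows are shown for the gene pairs whose levels moved most closely together over pups, Per1 with Bhlhe40 and Arntl with Nr1d1, and for Per2, the window with a match to 2 different motifs. All 10 genes had an entry in the RefSeq windows (rat assembly GRCr8, 250 bases before to 50 after the annotated start, 5′ to 3′ on the gene's strand). Both strands were searched for the E-box CACGTG, the E′-box CACGTT, the D-box TTATGTAA, the ROR element core AGGTCA (bound by RORs and REV-ERBs) and the cAMP response element TGACGTCA. Of 33469 windows in all, 6.42% held the E-box, 4.83% the E′-box, 0.893% the D-box, 16.2% the ROR element core and 1.83% the cAMP response element. Capitals mark a match, and no matches overlapped.
Per1, chr10:54304126-54304425, + strand: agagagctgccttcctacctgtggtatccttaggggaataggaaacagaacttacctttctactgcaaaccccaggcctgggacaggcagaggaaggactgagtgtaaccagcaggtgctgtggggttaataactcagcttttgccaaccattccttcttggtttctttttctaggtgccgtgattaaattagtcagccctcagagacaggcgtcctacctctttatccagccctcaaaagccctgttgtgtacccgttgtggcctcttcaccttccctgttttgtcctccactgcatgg
Bhlhe40, chr4:143174200-143174499, + strand: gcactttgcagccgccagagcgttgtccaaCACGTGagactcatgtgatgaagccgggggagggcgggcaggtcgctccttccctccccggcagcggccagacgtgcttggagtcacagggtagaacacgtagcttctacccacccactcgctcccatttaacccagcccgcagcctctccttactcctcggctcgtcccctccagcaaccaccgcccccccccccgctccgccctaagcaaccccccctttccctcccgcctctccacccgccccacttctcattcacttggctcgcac
Arntl, chr1:176766078-176766377, + strand: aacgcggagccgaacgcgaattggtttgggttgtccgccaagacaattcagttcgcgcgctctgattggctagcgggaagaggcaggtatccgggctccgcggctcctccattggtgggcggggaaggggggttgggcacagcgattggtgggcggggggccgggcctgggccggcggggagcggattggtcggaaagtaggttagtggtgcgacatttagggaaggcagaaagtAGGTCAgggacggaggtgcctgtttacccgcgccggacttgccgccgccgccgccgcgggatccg
Nr1d1, chr10:84231763-84232062, - strand: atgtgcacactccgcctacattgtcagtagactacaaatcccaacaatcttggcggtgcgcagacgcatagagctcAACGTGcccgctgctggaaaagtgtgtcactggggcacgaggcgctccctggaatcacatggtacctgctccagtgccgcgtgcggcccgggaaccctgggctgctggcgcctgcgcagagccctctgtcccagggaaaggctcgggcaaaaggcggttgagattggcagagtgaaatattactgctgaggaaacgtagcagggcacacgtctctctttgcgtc
Nr1d1 second start, chr10:84229405-84229704, - strand: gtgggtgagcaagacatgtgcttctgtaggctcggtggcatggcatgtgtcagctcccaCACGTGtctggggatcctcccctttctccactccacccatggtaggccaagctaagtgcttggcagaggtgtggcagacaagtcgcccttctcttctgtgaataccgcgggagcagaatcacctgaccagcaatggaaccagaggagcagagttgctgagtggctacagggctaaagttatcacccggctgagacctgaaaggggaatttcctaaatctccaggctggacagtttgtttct
Per2, chr9:99496944-99497243, - strand: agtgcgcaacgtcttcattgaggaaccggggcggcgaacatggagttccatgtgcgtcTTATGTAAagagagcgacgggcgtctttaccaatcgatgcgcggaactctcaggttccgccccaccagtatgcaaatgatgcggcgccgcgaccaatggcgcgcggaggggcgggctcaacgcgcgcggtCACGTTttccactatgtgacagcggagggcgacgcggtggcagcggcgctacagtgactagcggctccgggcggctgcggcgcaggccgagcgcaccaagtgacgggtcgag

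With the annotated start at 0, the Bhlhe40 window held an E-box whose first base was at -220, and that of Bhlhe41 (chr4:180569306-180569605, not printed) held one at -48. The Per2 window held an E′-box at -62 and a D-box at -192. The first Nr1d1 window held an E′-box on the opposite strand at -174, and the window of its second start an E-box at -191. The ROR element core stood at -15 in the Arntl window and at -187 in that of Nr1d2. None of the 5 motifs was found in the windows of Clock, Per1, Per3 and Dbp, which says only that these letters are not in those bases.

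All 10 genes were expressed and passed the filter on low counts. On the per-length TPM scale (abundance scaled to gene length and library, as deposited), Dbp was the most abundant, at 84.7 ± 14.5 TPM (SD, n = 18), and stood above Nr1d1 in 18 of 18 pups. Nr1d1 followed at 34.5 ± 4.61 TPM and Nr1d2 at 27.4 ± 2.73, with Nr1d1 the higher in 17 of 18 pups. Bhlhe40 (23.9 ± 10.1 TPM), Per1 (18.9 ± 5.7), Arntl (18.8 ± 2.08) and Per3 (17.2 ± 4.37) came next, and the order of neighbours among these varied from pup to pup. Nr1d2 exceeded Bhlhe40 in 12 of 18 pups, Bhlhe40 exceeded Per1 in 14, Per1 exceeded Arntl in 8 and Arntl exceeded Per3 in 13. Per3 stood above Clock (13 ± 2.5 TPM) in 18 of 18 pups, Clock above Per2 (10.4 ± 1.66) in 17, and Per2 above Bhlhe41 (6 ± 2.12) in 17.

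How far a gene varied between pups of the same group differed widely among the clock genes. Arntl was among the steadiest genes in the tissue, with a within-group SD of 0.10 on the log2 CPM scale, at percentile 6.3 of the 15703 genes tested. Clock (0.12, percentile 10.8), Nr1d2 (0.14, percentile 16.5) and Nr1d1 (0.17, percentile 25.8) were also steady. Per2 at 0.19 and Per3 at 0.21 lay below the median gene, whose SD was 0.25. Per1 (0.31) and Dbp (0.32) lay above it, and Bhlhe41 (0.43, percentile 75.7) and Bhlhe40 (0.47, percentile 79.5) varied most.

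**Figure D1:**
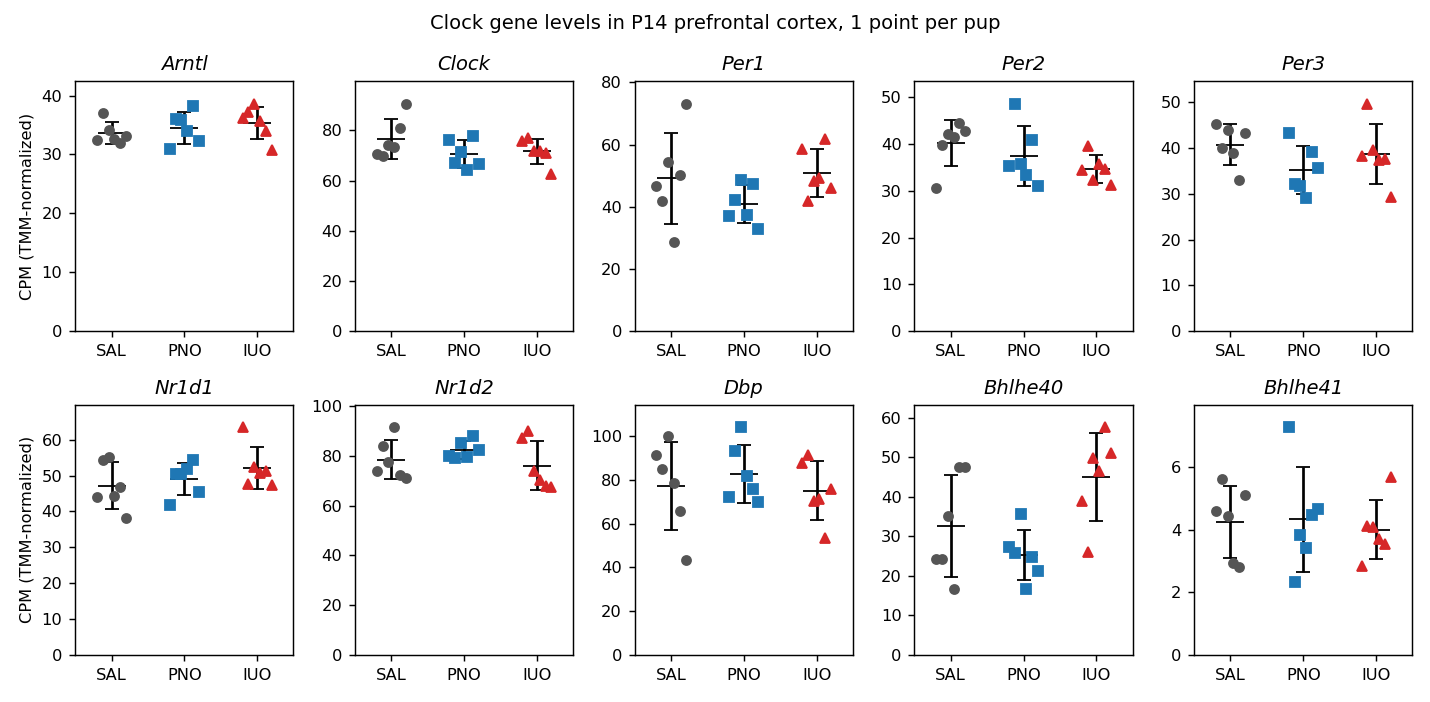
Level of each clock gene in CPM (TMM-normalized, y axis from 0) in SAL, PNO and IUO, with 1 point per pup and the mean ± SD of 6 pups as horizontal marks and bars. Arntl sits between 30.8 and 38.6 CPM in all 18 pups, while Bhlhe40 runs from 16.7 to 57.6.

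The first question was whether oxy through the milk alone changed the clock genes. Between PNO and SAL, edgeR's quasi-likelihood test with Benjamini-Hochberg adjustment called 0 of 10 (smallest adjusted p = 0.912), as it called 0% of all genes. At an unadjusted p under 0.05, 0 of 10 passed, against 4.5% of all genes. DESeq2 and limma-voom with sample quality weights (weighted limma-voom) also called 0 after adjustment, and at the unadjusted level DESeq2 passed 0 and weighted limma-voom 1, Per3. The shares of all genes that passed, here and below, are those of edgeR. Those of DESeq2 and weighted limma-voom are not given, so the counts of these tools stand without a background. Log2 fold changes ran from -0.36 to 0.10 with a median of -0.04, where the median over all genes was 0.00. No clock gene had values that did not overlap between the groups, a pattern seen in 0.108% of all genes.

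For exposure in utero and after birth, IUO against SAL, edgeR again called 0 of 10 (smallest adjusted p = 0.748) and 0% of all genes. None passed an unadjusted p under 0.05, against 6.88% of all genes. DESeq2 and weighted limma-voom called 0 after adjustment, and at the unadjusted level DESeq2 passed 1 (Per2) and weighted limma-voom 2 (Per2 and Bhlhe40). The 6.88% is edgeR's share and is no background for these counts. The log2 fold changes had a median of -0.04 and a range of -0.21 to 0.47. Values that did not overlap were again found for 0 of 10 genes, against 0.745% of all genes.

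Between the exposed groups, IUO against PNO, edgeR called 0 of 10 after adjustment, against 0.0637% of all genes, and 1 of 10, Bhlhe40, passed an unadjusted p under 0.05, against 15.3% of all genes. A share of 1 in 10 is no larger than that background. DESeq2 and weighted limma-voom each called 1 of 10 after adjustment, Bhlhe40. At the unadjusted level DESeq2 passed 1 and weighted limma-voom 3 (Bhlhe40, Per1 and Nr1d2). The shares of 0.0637% and 15.3% are those of edgeR and are no background for these counts. How many of all genes passed with these tools is not given here. The median log2 fold change was 0.03, and 0 of 10 genes had groups that did not overlap, against 1.66% of all genes.

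**Figure D2:**
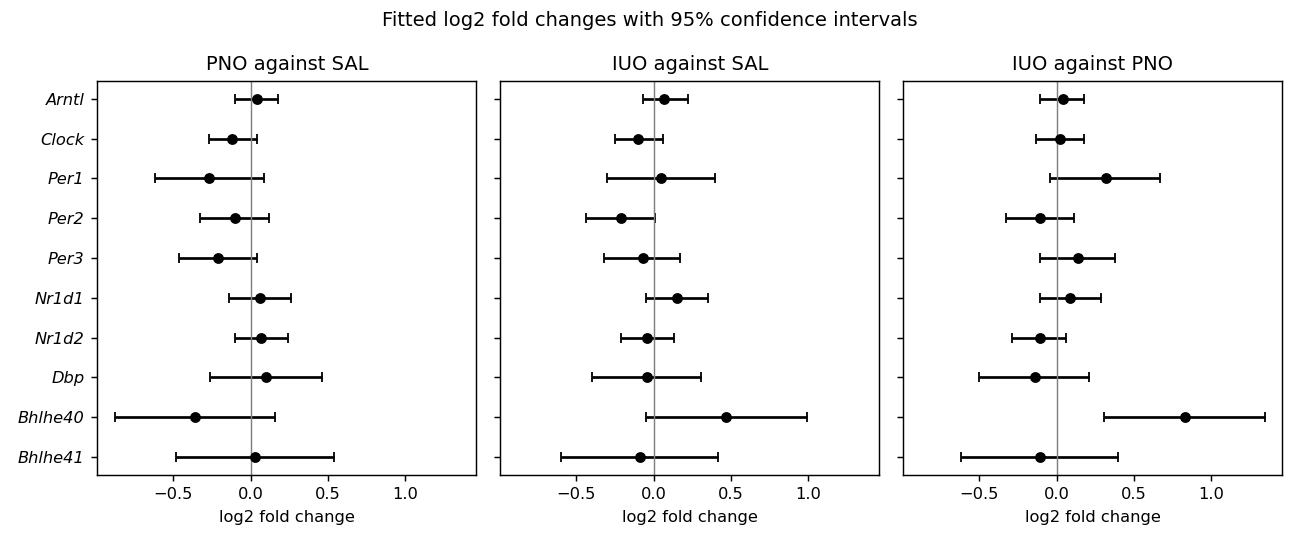
Log2 fold changes (x axis) of the clock genes in the 3 comparisons, with 95% confidence intervals from the edgeR model over 18 pups. Only the interval of Bhlhe40 between IUO and PNO (0.31 to 1.35) leaves out 0.

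Bhlhe40 (ENSRNOG00000007152), a basic helix-loop-helix repressor that is also induced by activity and hypoxia, had the largest of these differences. In PNO its lowest, median and highest levels were 16.7, 25.3 and 35.8 CPM, in IUO 26, 48.2 and 57.6, and in SAL 16.7, 29.8 and 47.5. In all, 5 IUO pups lay above the highest PNO pup, and the groups overlapped through IUO replicate 2, at 26 CPM. The mean was 45 ± 11.1 CPM in IUO and 25.3 ± 6.41 in PNO (SD, n = 6 each), a 1.78-fold difference (95% interval 1.24 to 2.56, unadjusted p = 0.00355, edgeR adjusted p = 0.137). Against SAL at 32.6 ± 13 CPM, the log2 fold change was 0.47 (SE 0.25, edgeR adjusted p = 0.783) in IUO and -0.36 (SE 0.25, edgeR adjusted p = 0.912) in PNO. These 3 values share groups and are set side by side only. With the myelin marker score as a covariate, the differences from SAL were 0.33 (SE 0.24) in IUO and -0.10 (SE 0.26) in PNO. Leaving out 1 pup gave 0.33 to 0.61 for IUO against SAL, with an unadjusted p under 0.05 without SAL replicate 5, SAL replicate 6 or IUO replicate 2. For PNO it gave -0.50 to -0.23, with -0.23 without SAL replicate 5 or 6 and an unadjusted p of 0.0434 without SAL replicate 4.

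The call for Bhlhe40 between IUO and PNO depended on the tool. DESeq2 gave an adjusted p of 0.0405 and weighted limma-voom 0.0132, with a log2 fold change of 1.04. Leaving out each of the 12 pups in turn kept the log2 fold change between 0.74 and 0.96, with an unadjusted edgeR p under 0.05 in 12 of 12 fits and an adjusted p from 0.124 to 0.291. All 6 myelin markers were lower in IUO than in PNO with an unadjusted p under 0.05, against 15.3% of all genes, with log2 fold changes from -1.79 to -0.94, and 0 of 6 passed the adjusted test (smallest adjusted p = 0.102). Their summed level ran from 2124 to 5438 CPM in IUO (median 2907), from 2812 to 14322 in PNO (median 10040) and from 1660 to 9059 in SAL (median 6089), and 0 of the 6 were at 0. With the myelin marker score as a covariate, chosen after the data were seen, the Bhlhe40 difference was 0.42 (SE 0.30, unadjusted p = 0.175, adjusted p = 0.757). With the striatal marker score in its place it was 0.85 (SE 0.26, unadjusted p = 0.00447, adjusted p = 0.118).

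Bhlhe41 (ENSRNOG00000048961), the paralogue of Bhlhe40, was the least abundant clock gene and showed no such difference. Its means were 4.25 ± 1.14 CPM in SAL, 4.32 ± 1.66 in PNO and 4 ± 0.951 in IUO. Its intervals were wide, from -0.62 to 0.40 on the log2 scale between IUO and PNO (edgeR adjusted p = 0.842). The highest pup, PNO replicate 1 at 7.26 CPM, and the lowest, PNO replicate 2 at 2.32, were in the same group.

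The core activators Arntl and Clock were the steadiest of the 10 within groups on the log2 CPM scale. This did not hold on TPM. Over all 18 pups the ratio of highest to lowest TPM was 1.41 for Nr1d2, 1.48 for Arntl and 2.06 for Clock. Arntl (ENSRNOG00000014448), the partner without which the loop stops, had lowest, median and highest levels of 32, 32.9 and 37.1 CPM in SAL, 30.9, 34.9 and 38.2 in PNO, and 30.8, 35.9 and 38.6 in IUO. The groups overlapped almost entirely. The 95% interval of its fold change was 0.931 to 1.13 for PNO against SAL, 0.954 to 1.16 for IUO against SAL and 0.929 to 1.13 for IUO against PNO, so changes beyond these bounds lie outside the intervals. Clock (ENSRNOG00000002175), its partner, averaged 76.6 ± 7.92 CPM in SAL, 70.5 ± 5.49 in PNO and 71.6 ± 4.99 in IUO. The interval of its fold change was 0.828 to 1.02 in PNO and 0.841 to 1.04 in IUO against SAL. SAL replicate 6, the pup farthest out on the first principal component, had the highest Clock level at 90.6 CPM.

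The Per genes, which encode the repressors of the core loop, showed small differences that did not pass the adjusted test. Per1 (ENSRNOG00000007387) had lowest, median and highest levels of 28.8, 48.3 and 73.1 CPM in SAL, 32.9, 39.7 and 48.6 in PNO, and 41.7, 48.8 and 61.7 in IUO. SAL spanned more than either exposed group, with SAL replicate 4 the lowest and SAL replicate 6 the highest of all 18 pups. The log2 fold change of Per1 between IUO and PNO was 0.32 (SE 0.17, unadjusted p = 0.0754, edgeR adjusted p = 0.38). With the myelin marker score as a covariate it was 0.03 (SE 0.18). Between PNO and SAL the log2 fold change of Per1 was -0.27 (SE 0.17, unadjusted p = 0.13, edgeR adjusted p = 0.912). It was -0.38 without SAL replicate 4 (unadjusted p = 0.0157, adjusted p = 0.593) and -0.12 without SAL replicate 6.

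Per2 (ENSRNOG00000020254) was lowest in IUO, at 34.7 ± 2.92 CPM against 40.2 ± 4.89 in SAL and 37.5 ± 6.36 in PNO. Its lowest, median and highest levels were 31.2, 34.6 and 39.6 CPM in IUO and 30.7, 41.9 and 44.4 in SAL. Of the SAL pups, 5 lay at or above 39.8 CPM, over every IUO pup, and SAL replicate 1 lay below all of them. The log2 fold change of IUO against SAL was -0.21 (SE 0.11, unadjusted p = 0.0586, edgeR adjusted p = 0.748). Without SAL replicate 1 it was -0.29, with an unadjusted p of 0.00904 and an adjusted p of 0.505. Per3 (ENSRNOG00000018413) averaged 40.8 ± 4.48 CPM in SAL, 35.2 ± 5.29 in PNO and 38.7 ± 6.5 in IUO, and its log2 fold change of PNO against SAL was -0.21 (SE 0.12, unadjusted p = 0.0888, edgeR adjusted p = 0.912). It was -0.26 without SAL replicate 5 (unadjusted p = 0.0375, adjusted p = 0.932) and -0.28 without PNO replicate 1 (unadjusted p = 0.0261, adjusted p = 0.536).

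Nr1d1 (ENSRNOG00000009329), which encodes REV-ERB alpha, averaged 47.1 ± 6.55 CPM in SAL, 49 ± 4.56 in PNO and 52.2 ± 5.86 in IUO. The log2 fold change of IUO against SAL was 0.15 (SE 0.10, edgeR adjusted p = 0.875). Its values are less certain than those of the other 9 genes. The deposited expected counts, given to 2 decimals, were whole numbers (within 0.001) in 0% of pups, against 100% for the others, and Nr1d1 is known to overlap Thra on the opposite strand. Whether reads were divided between these genes was not tested. Whether the counting used strand is not given in the sources used here. Nr1d2 (ENSRNOG00000046912), which encodes REV-ERB beta, averaged 78.4 ± 7.89 CPM in SAL, 82.3 ± 3.56 in PNO and 76.1 ± 9.94 in IUO. IUO fell into levels of 87.2 and 89.8 in 2 pups and 67.5 to 74.1 in the other 4, while PNO stayed between 79.1 and 88.

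Dbp (ENSRNOG00000021027), a PAR bZIP activator driven by the clock and strongly rhythmic in adult tissue, had no unadjusted p under 0.05 in any comparison by edgeR without covariates. With the striatal marker score as a covariate its log2 fold change between IUO and PNO was -0.33 (SE 0.14, unadjusted p = 0.0295, adjusted p = 0.226), against -0.14 without it, and with the myelin score it was 0.19 (SE 0.16). Its lowest, median and highest levels were 43.4, 81.8 and 100 CPM in SAL, 70.1, 78.8 and 104 in PNO and 53.6, 73.6 and 91.3 in IUO. The 95% interval of its fold change was 0.837 to 1.37 in PNO and 0.758 to 1.24 in IUO against SAL. Dbp followed the main axis of variation between libraries, with a Pearson r of 0.77 with the first principal component over 18 pups (permutation p = 0.0002, adjusted p = 0.004, Spearman rho 0.69, permutation p = 0.00212). Without the 2 pups farthest from the median of the component r was 0.52, and within SAL, PNO and IUO it was 0.77, 0.63 and 0.99. This was not particular to Dbp. Per1 (r = -0.67, permutation p = 0.00209, adjusted p = 0.0155, rho -0.52, permutation p = 0.0286), Bhlhe40 (-0.67, permutation p = 0.00233, adjusted p = 0.0155, rho -0.66, permutation p = 0.00423) and Nr1d2 (0.60, permutation p = 0.00921, adjusted p = 0.0368, rho 0.53, permutation p = 0.0249) also passed by Pearson r, with -0.43, -0.58 and 0.46 without the 2 farthest pups, but the rho of Per1 and Nr1d2 did not (adjusted p = 0.114 each). Within PNO the r of Per1, Bhlhe40 and Nr1d2 was -0.01, -0.15 and -0.36, against -0.92, -0.80 and 0.83 within SAL and -0.51, -0.80 and 0.77 within IUO. For comparison, the median absolute r over all tested genes was 0.50. Dbp was also lower in deeper libraries, with an r of -0.62 with the log2 total count (permutation p = 0.00465, adjusted p = 0.0232, rho -0.72, permutation p = 0.00124). That relation had an r of -0.63 without the 2 farthest pups and of -0.56, -0.55 and -0.81 within SAL, PNO and IUO. These relations were among 20 tested, the adjustment covered all 20, and the part of depth in the Dbp values was not tested.

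Since pups were sampled without a known clock time, the levels of the clock genes were compared with each other over the 18 pups, on log2 CPM. Of 45 pairs, 27 had a positive and 18 a negative r. At an adjusted permutation p under 0.05, 2 pairs were correlated, and 9 at an unadjusted p under 0.05. The count depended on the scale, with 16 pairs past the adjusted test on log2(TPM + 1) and 0 after removal of the first principal component. On log2 CPM the median absolute r was 0.22, against 0.29 over all pairs of tested genes, and 6 of 45 pairs had an absolute r of at least 0.5, against 22.4% of all pairs. Both values lie below those over all genes.

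**Figure D3:**
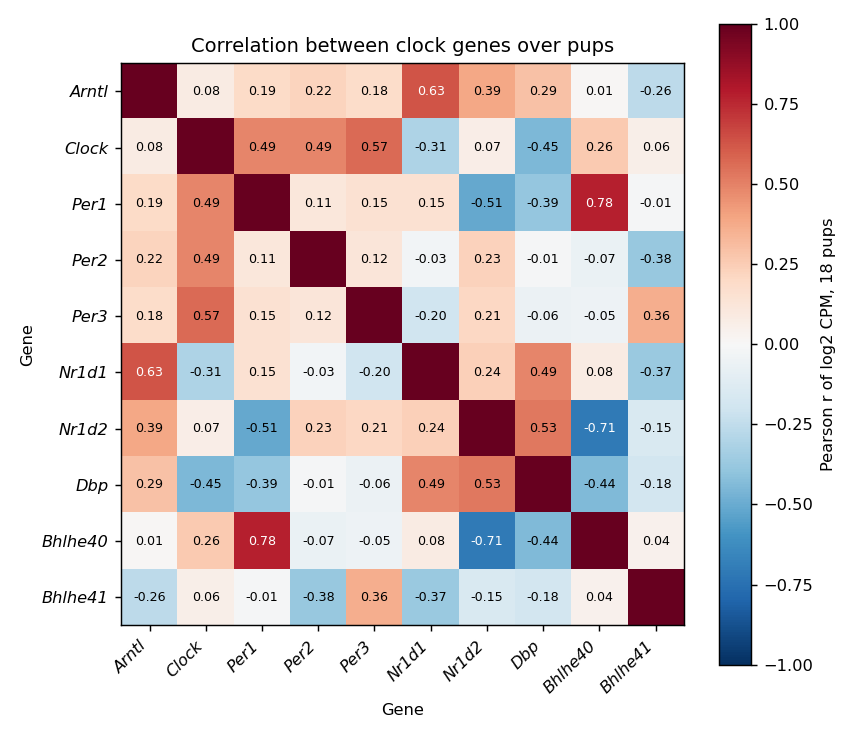
Pearson r of log2 CPM over 18 pups for each pair of clock genes, with positive values in red and negative values in blue. The highest off-diagonal value is 0.78 for Per1 and Bhlhe40 and the lowest is -0.71 for Nr1d2 and Bhlhe40.

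Per1 and Bhlhe40 formed the most closely correlated pair. Pups with much Per1 had much Bhlhe40 (r = 0.78, permutation p = 9e-05, adjusted p = 0.00405; rho = 0.75, permutation p = 0.00053, adjusted p = 0.0238). The value was 0.74 without the 2 pups farthest from the median of Per1, 0.88 within SAL, 0.64 within PNO and 0.55 within IUO. After removal of the first principal component it was 0.61 (adjusted p = 0.0938). Per1 further followed the immediate-early genes, a list of 16 transcripts such as Fos, Arc and Egr1 that rise within minutes of neuronal firing. Its r with their mean z-score was 0.83 (permutation p = 3e-05, adjusted p = 0.003 over 100 relations of genes and lists; rho = 0.87, permutation p = 2e-05). It was 0.74 without the 2 farthest pups and 0.97, 0.80 and 0.71 within SAL, PNO and IUO. For Bhlhe40 the same r was 0.58 (permutation p = 0.0116, adjusted p = 0.165; rho = 0.59, permutation p = 0.0114), with 0.94, 0.54 and 0.17 within the groups. With the neuronal marker score, the r of Per1 was 0.52 (permutation p = 0.025, adjusted p = 0.224, rho 0.63), with 0.50, 0.89 and 0.71 within the groups. That of Bhlhe40 was 0.50 (permutation p = 0.0335, adjusted p = 0.24, rho 0.51), with 0.79, 0.42 and 0.61. The part of neuron content in these relations was not tested.

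**Figure D4:**
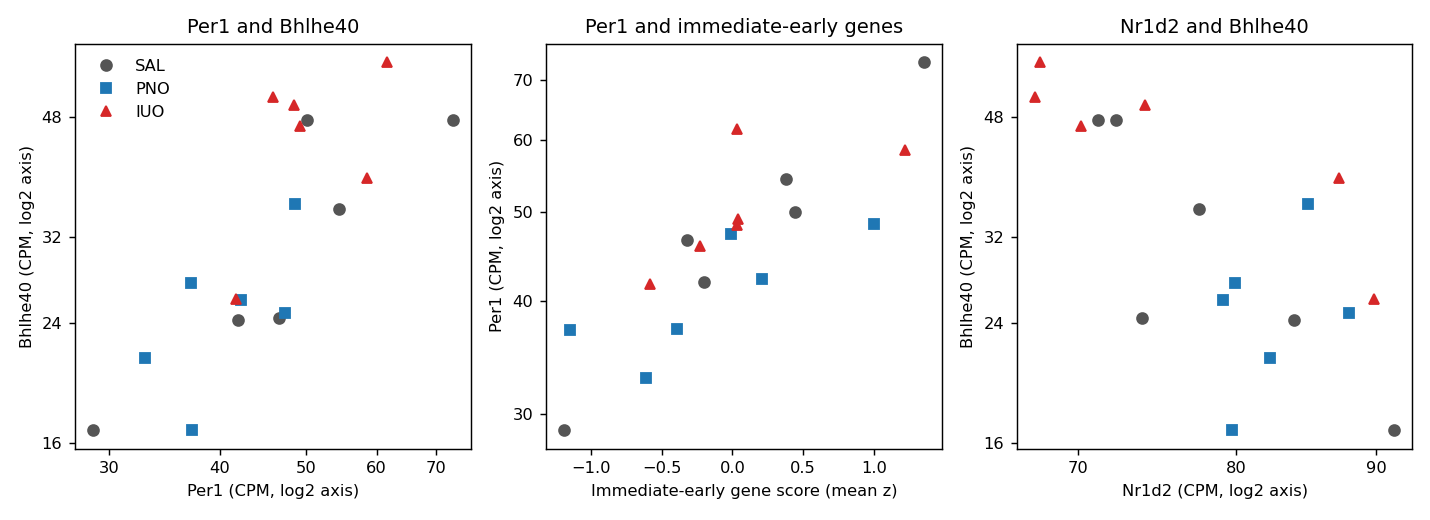
Bhlhe40 against Per1 (left), Per1 against the mean z-score of 16 immediate-early genes (middle) and Bhlhe40 against Nr1d2 (right), with CPM on log2 axes and 1 point per pup. Per1 rises with Bhlhe40 (r = 0.78) and with the score (r = 0.83), and Bhlhe40 falls as Nr1d2 rises (r = -0.71), although not within PNO (r = 0.36).

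Nr1d2 and Bhlhe40 were inversely correlated (r = -0.71, permutation p = 0.00112, adjusted p = 0.0252; rho = -0.67, permutation p = 0.00273, adjusted p = 0.0409). The relation was not shared by all groups, with r = -0.86 within SAL, -0.89 within IUO and 0.36 within PNO. It was -0.61 without the 2 pups farthest from the median of Nr1d2 (adjusted p = 0.217) and -0.09 when log2(TPM + 1) replaced log2 CPM (adjusted p = 0.766). Leaving out SAL replicate 4 or IUO replicate 4, 5 or 6 also took its adjusted p past 0.05, to between 0.0565 and 0.11. So did group-centred values (r = -0.67, adjusted p = 0.0544) and no library size normalization (-0.60, adjusted p = 0.0794). With the first principal component removed it was -0.52 (adjusted p = 0.199). Per1 and Nr1d2 had the next lowest r (-0.51, permutation p = 0.0283, adjusted p = 0.208), followed by Clock and Dbp (-0.45), Dbp and Bhlhe40 (-0.44) and Per1 and Dbp (-0.39), with adjusted p-values from 0.273 to 0.389. In that order, r within SAL was -0.88, -0.92, -0.57 and -0.53. Within PNO it was 0.61, -0.20, 0.53 and 0.68, and within IUO -0.22, 0.37, -0.82 and -0.56. Without the 2 farthest pups it was -0.32, -0.09, -0.19 and -0.10.

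Arntl and Nr1d1, which are known to move in opposite phases over the day in adult tissue, were positively correlated here by rank. Their r was 0.63 (permutation p = 0.00461, adjusted p = 0.0691) and their rho 0.70 (permutation p = 0.00165, adjusted p = 0.0371). The r was 0.61 without the 2 farthest pups, and 0.63, 0.92 and 0.32 within SAL, PNO and IUO. Within PNO both genes were lower in deeper libraries, with an r with the log2 total count of -0.99 for Arntl and -0.95 for Nr1d1, and the part of depth in this relation was not tested. Both had a narrow range, so the relation spans 30.8 to 38.6 CPM of Arntl. Other pairs of opposite phase in adult tissue were Arntl and Dbp (r = 0.29, adjusted p = 0.638) and Arntl and Per2 (r = 0.22, adjusted p = 0.75), neither negative.

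The next pairs, which share a phase in adult tissue, did not pass the adjusted test. The r was 0.49 for Nr1d1 and Dbp (a pair added after its value was seen, permutation p = 0.0418, adjusted p = 0.209, 0.14 without the 2 farthest pups, and 0.78, 0.47 and 0.18 within SAL, PNO and IUO), 0.24 for Nr1d1 and Nr1d2 (adjusted p = 0.711), 0.11 for Per1 and Per2 (adjusted p = 0.898) and -0.06 for Per3 and Dbp (adjusted p = 0.939). Arntl and Clock, whose proteins work as a dimer, had an r of 0.08 (adjusted p = 0.939), although with log2(TPM + 1) in place of log2 CPM it was 0.72 (adjusted p = 0.00306). The paralogues Bhlhe40 and Bhlhe41 had an r of 0.04 (adjusted p = 0.957). Clock correlated more with Per3 (0.57, permutation p = 0.012, adjusted p = 0.135) and with Per2 (0.49, permutation p = 0.0364, adjusted p = 0.208), and Nr1d2 with Dbp (0.53, permutation p = 0.0195, adjusted p = 0.175). Within SAL, however, the r of Clock and Per3 was -0.15, against 0.81 in PNO and 0.90 in IUO. Within SAL, PNO and IUO that of Clock and Per2 was 0.53, 0.19 and 0.77, and that of Nr1d2 and Dbp 0.44, 0.04 and 0.80. Without the 2 farthest pups Clock and Per2 had 0.34. With the first principal component removed Nr1d2 and Dbp had 0.15.

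Dbp, Per1 and Bhlhe40 had the highest absolute r with the myelin markers, which belong to oligodendrocytes and increase steeply in the rodent cortex around this age. The r with the myelin score was 0.64 for Dbp (permutation p = 0.00351), -0.66 for Per1 (permutation p = 0.00248) and -0.67 for Bhlhe40 (permutation p = 0.00286), with an adjusted p of 0.0877 each, and rho was 0.51, -0.61 and -0.65 (permutation p = 0.0333, 0.00864 and 0.00419). Without the 2 farthest pups the 3 values were 0.67, -0.53 and -0.68. Within SAL, PNO and IUO they were 0.92, 0.05 and 0.91 for Dbp, -0.76, -0.46 and -0.23 for Per1, and -0.74, 0.14 and -0.83 for Bhlhe40. The myelin score itself had an r of 0.69 with the first principal component. Dbp had an r of 0.57 with the striatal marker score (permutation p = 0.0111, adjusted p = 0.165, rho 0.49, permutation p = 0.042), with 0.71, 0.57 and 0.81 within SAL, PNO and IUO, and of 0.55 with the choroid plexus score (permutation p = 0.0173, adjusted p = 0.192, rho 0.57, permutation p = 0.0141), with 0.81, 0.14 and 0.55 within them. Nr1d2 had an r of 0.57 with the myelin score (permutation p = 0.0147, adjusted p = 0.183, rho 0.53, permutation p = 0.0264), with 0.75, -0.59 and 0.90 within the groups. Bhlhe41 had an r of 0.62 with the astrocyte score (permutation p = 0.00646, adjusted p = 0.129, rho 0.59, permutation p = 0.0114), with 0.84, 0.71 and -0.02 within the groups. Without the 2 farthest pups these 4 values were 0.52, 0.60, 0.58 and 0.38.

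**Figure D5:**
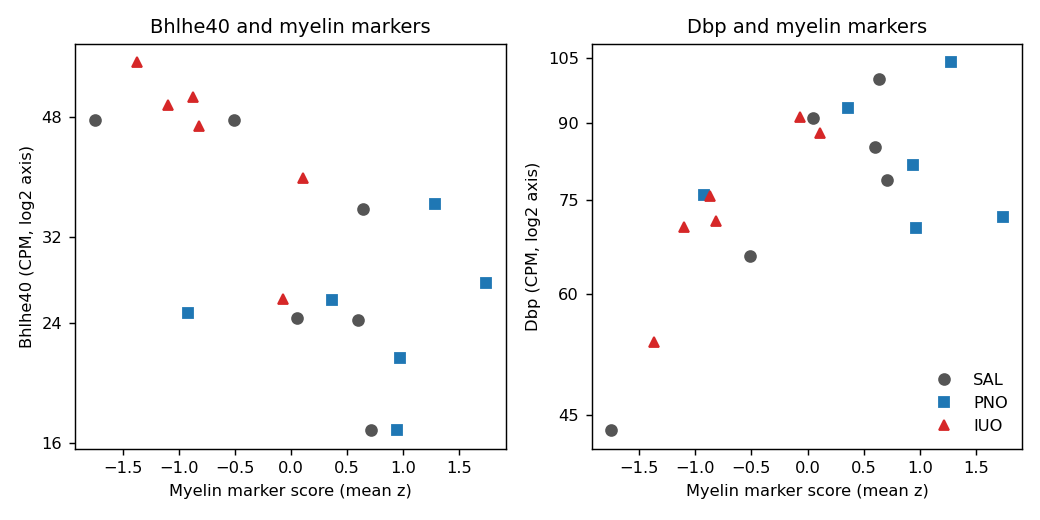
Bhlhe40 (left) and Dbp (right) in CPM on a log2 axis against the mean z-score of 6 myelin markers, with 1 point per pup. Bhlhe40 falls with the score (r = -0.67) and Dbp rises (r = 0.64), with no such relation within PNO (r = 0.14 and 0.05).

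The genes whose pattern over pups was most like that of 3 clock genes were sought among 9882 genes with a mean of at least 10 CPM, by Pearson r of group-centred log2 CPM over 18 pups. For Arntl these were Sgk1 (0.79), Car7 (0.73), Thumpd2 (0.73), Zfp703 (0.71) and Abhd5 (0.70), whose r without centring on the groups was 0.76, 0.54, 0.51, 0.74 and 0.55. For Dbp they were Ndufaf7 (0.93), Timm21 (0.92), Myl12a (0.91) and Bphl (0.90). For Bhlhe40 they were Synpo (0.92), which encodes an actin-binding protein of dendritic spines, Wls (0.91), which carries Wnt proteins to the surface, Stard8 (0.90), Bahd1 (0.90) and Cobl (0.90), an actin nucleator. Without centring the r of Wls, Stard8 and Bahd1 with Bhlhe40 was 0.63, 0.65 and 0.61, against 0.90 for Synpo and 0.88 for Cobl. These are the highest of many values and carry no test.

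Other parts of the clock machinery were read from a list of 19 genes, of which 18 were tested. The adjusted test called 0 of them in each comparison. At an unadjusted p under 0.05, 1 was lower in PNO than in SAL, 3 were higher in IUO than in SAL and 2 were higher in IUO than in PNO, with 0 in the opposite directions, beside 4.5%, 6.88% and 15.3% of all genes in both directions. Their median log2 fold changes were -0.06, 0.05 and 0.11, against 0.00, -0.01 and -0.00 over all genes. By mean TPM the most abundant were Csnk1e (78.2), Tef (76.2), Csnk1d (66.8), Cry2 (58.4), Fbxw11 (40.5) and Gsk3b (33.3).

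Csnk1e, a casein kinase that marks PER proteins for turnover, stood higher in IUO at 122 ± 10.2 CPM than in SAL at 103 ± 11.5 (log2 fold change 0.24, SE 0.09, unadjusted p = 0.0137, edgeR adjusted p = 0.565) and PNO at 96.7 ± 11.8 (0.33, SE 0.09, unadjusted p = 0.00114, edgeR adjusted p = 0.11). Its lowest, median and highest levels were 111, 119 and 141 CPM in IUO and 86.2, 91.9 and 119 in PNO, and the groups overlapped. Cry2, a cryptochrome that represses the core activators together with the PER proteins, had means of 162 ± 24.6 CPM in IUO, 138 ± 21.4 in SAL and 129 ± 12.6 in PNO, with a log2 fold change of 0.33 between IUO and PNO (SE 0.11, unadjusted p = 0.00802, edgeR adjusted p = 0.177) and of 0.23 between IUO and SAL (SE 0.11, unadjusted p = 0.0472, edgeR adjusted p = 0.713). Ciart, a further repressor, had 9.24 ± 2.34 CPM in IUO and 6.88 ± 1.2 in SAL (0.43, SE 0.16, unadjusted p = 0.0177, edgeR adjusted p = 0.607). Arntl2, the scarce paralogue of Arntl, had 1.12 ± 0.398 CPM in PNO and 1.73 ± 0.54 in SAL (-0.63, SE 0.27, unadjusted p = 0.0318, edgeR adjusted p = 0.912). The closely related kinase Csnk1d and the Dbp relative Tef had adjusted p-values between 0.483 and 0.99 in the 3 comparisons.

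Of 8 output genes driven by the clock in other tissues, 7 were tested and 0 were called after adjustment. Between IUO and PNO 1 of 7 passed an unadjusted p under 0.05, against 15.3% of all genes. This was Klf15, a transcription factor that glucocorticoids also induce, whose values did not overlap, a pattern seen in 1.66% of all genes, with 8.94 to 11.8 CPM in IUO and 12.2 to 14.3 in PNO (log2 fold change -0.31, SE 0.09, unadjusted p = 0.00301, edgeR adjusted p = 0.132), and it had a log2 fold change of 0.19 between PNO and SAL (SE 0.09, unadjusted p = 0.0449, edgeR adjusted p = 0.912). Wee1, a cell cycle kinase, had 15.1 ± 1.32 CPM in IUO and 17.4 ± 1.04 in SAL (-0.20, SE 0.08, unadjusted p = 0.0243, edgeR adjusted p = 0.659).

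Immediate-early genes and glucocorticoid-induced genes were read as lists because both kinds of input are known to reach Per1. Of 16 immediate-early genes, 0 passed the adjusted test, and at an unadjusted p under 0.05 1 was higher and 1 lower in IUO than in PNO, against 15.3% of all genes. These were Egr3 (log2 fold change 0.62, SE 0.29, unadjusted p = 0.0434, edgeR adjusted p = 0.313) and Nr4a2 (-1.25, SE 0.55, unadjusted p = 0.034, edgeR adjusted p = 0.29). Of 8 glucocorticoid-induced genes, 0 passed the adjusted test, and 1, Tsc22d3 (GILZ), had an unadjusted p under 0.05, in IUO against both PNO and SAL, where 15.3% and 6.88% of all genes passed. It lay between 45.8 and 59.8 CPM in IUO and between 60 and 77.8 in PNO (log2 fold change -0.45, SE 0.11, unadjusted p = 0.000564, edgeR adjusted p = 0.0946), and its log2 fold change between IUO and SAL was -0.26 (SE 0.11, unadjusted p = 0.0264, edgeR adjusted p = 0.673). The IUO and PNO values of Tsc22d3 narrowly missed overlapping, at 59.8 and 60 CPM. Values without overlap were seen in 1.66% of all genes. Summed over the list, levels ran from 173 to 184 CPM in IUO and from 193 to 217 in PNO, with SAL between 183 and 199. That gap is carried by Tsc22d3, at 69.4 ± 7.49 CPM in PNO and 50.7 ± 5.08 in IUO. Over the list the median log2 fold change between IUO and PNO was -0.02, with 3 genes higher and 5 lower, and the list's z-scores overlapped, at -0.40 to 0.08 in IUO and -0.35 to 0.64 in PNO. Fkbp5, Sgk1 and the other members did not pass an unadjusted p under 0.05 in any comparison.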

How the data were processed

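RNA from the PFC of 18 pups was sequenced on 1 flow cell, and groups and replicate numbers were taken from the sample titles. For every gene and pup the authors deposited an expected count (reads matching several genes are divided between them by estimation) and a TPM value, which is scaled to gene length and to a fixed total within each pup. The aligner, quantifier, genome build and clock time of collection are not given in the sources used here. Rounded expected counts entered the two-sided quasi-likelihood test of edgeR 4.0.16 (R 4.3.3), after filterByExpr and TMM scaling and with 1 model for the 3 groups, with Benjamini-Hochberg adjustment over 15703 genes and a call at an adjusted p under 0.05. DESeq2 1.42.0 and limma-voom (limma 3.58.1, always with sample quality weights, so that tool and weighting change together) were alternatives. Correlations used log2 CPM (prior count 2), two-sided permutation tests with 100000 resamples and adjustment over 45 pairs, 100 relations with list scores or 20 with the first principal component and depth. List scores are means of z-scored log2 CPM. The 2 farthest pups were those farthest from the median of the first-named gene of a pair. For other relations they were those farthest from the median of the list score, component or depth. Pups far out on the second gene of a pair were not left out for that. Intervals are 95% intervals of the fitted fold change. The scripts were tested on simulated data. Motifs were searched in RefSeq promoter windows (GRCr8).

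The 10 genes and the lists were chosen with earlier results of these data known, and no pattern here is independent support for those. Named beside the 10 genes were list genes with an unadjusted p under 0.05, the 6 other clock genes with the highest mean TPM, the 5 highest and 5 lowest pairs, 8 pairs of known relation, and the 5 nearest genes of Arntl, Dbp and Bhlhe40, of which 1 is not reported here. Of 100 relations with list scores, those with the smallest p are given, together with those of Per1 and Bhlhe40 with the neuronal marker score. FPKM values were not used here.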

Additional observations from a re-analysis of the deposited data

Results flagged for a closer look

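In 2 of 30 sets of 6 pups (10 genes in 3 groups), 1 pup lay far from the others on the log2 CPM scale. Chance marks about 1 in 20 such sets. In SAL replicate 1, Per2 was at 30.7 CPM against 39.8 in the nearest SAL pup, a gap of 0.701 of the group's range. In IUO replicate 1, Nr1d1 was at 63.4 CPM against 52.4 in the nearest IUO pup, a gap of 0.66 of the range. The same IUO pup had the highest immediate-early gene score of its group, at 1.22.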

How the results depend on the processing

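With 6 pups per group, intervals were widest for Bhlhe40 and Bhlhe41, then Dbp and Per1. How depth limits each gene was not tested. No comparison against SAL called a clock gene under any alternative run. Between IUO and PNO the count called was 0 by edgeR under all its settings and 1 with DESeq2 and with weighted limma-voom (Bhlhe40). Counts at an unadjusted p under 0.05 of PNO against SAL rose to 1 with weighted limma-voom. Those of IUO against SAL were 2 with weighted limma-voom and 1 with no library size normalization, DESeq2, no filter on low counts, at least 10 counts in all pups, only the 12 pups compared or the myelin score as a covariate. For IUO against PNO they were 3 with weighted limma-voom, 2 with only the 12 pups (Bhlhe40 and Per1) or the striatal score (Bhlhe40 and Dbp) and 0 with the myelin score. With 1 pup left out they ran from 0 to 2 in both comparisons with SAL and from 1 to 2 between IUO and PNO. The shares of all genes that passed under these alternatives are not given here.

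The replicate numbers do not pair pups (mean correlation of same-numbered deviations 0.232, -0.0265 and 0.0626 in the 3 comparisons). With them as a replicate block, 2 genes passed an unadjusted p under 0.05 for IUO against SAL and 0 were called.

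Values near 0 changed sign, and none of these was called. For PNO against SAL, Arntl was -0.01 and Bhlhe41 -0.01 with no library size normalization, Nr1d1 -0.01, Dbp -0.03 and Bhlhe41 -0.19 with weighted limma-voom, and Dbp -0.05 and Bhlhe41 -0.01 with the myelin score. For IUO against SAL, the myelin score gave Per1 -0.05, Nr1d2 0.01 and Dbp 0.14, and for IUO against PNO it gave Clock -0.05 and Dbp 0.19, while weighted limma-voom gave Bhlhe41 0.04. With 1 pup left out, ranges crossed 0 for Dbp (-0.03 to 0.19) and Bhlhe41 (-0.18 to 0.16) in PNO against SAL, for Per1 (-0.06 to 0.19), Nr1d2 (-0.10 to 0.01), Dbp (-0.17 to 0.04) and Bhlhe41 (-0.21 to 0.01) in IUO against SAL, and for Clock (-0.01 to 0.06) and Bhlhe41 (-0.24 to 0.09) in IUO against PNO.

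The number of correlated pairs was 16 with log2(TPM + 1), which has no scaling between libraries beyond the fixed total, 1 with group-centred values, 1 without the 2 farthest pups, 0 with the first principal component removed, 3 by Spearman and 1 to 3 with 1 pup left out. The pair of Per1 and Bhlhe40 passed in each of these but the removal of the component. With log2(TPM + 1), r was 0.73 for Arntl and Nr1d1, 0.72 for Arntl and Clock, 0.79 for Clock and Per3 and 0.70 for Clock and Per2, each past the threshold, and -0.04 for Arntl and Dbp and 0.23 for Per1 and Nr1d2. Without the 2 farthest pups Nr1d1 and Nr1d2 had -0.04 and Bhlhe40 and Bhlhe41 -0.04. With the component removed, Bhlhe40 and Bhlhe41 had -0.42, Per3 and Dbp 0.39, Per1 and Dbp 0.28 and Dbp and Bhlhe40 0.15. Per3 and Dbp had 0.09 by Spearman, 0.02 group-centred and 0.01 with no library size normalization. Clock and Per3 passed with no library size normalization (0.73, adjusted p = 0.00967) and without SAL replicate 5 (0.70, adjusted p = 0.0295). Clock and Per2 passed without PNO replicate 2 (0.72, adjusted p = 0.0157). Arntl and Nr1d1 passed without SAL replicate 6 or IUO replicate 2 (0.67 each, adjusted p = 0.0441 and 0.0424). With 1 pup left out, r ran from -0.03 to 0.27 for Per1 and Per2, from -0.10 to 0.22 for Arntl and Clock, from -0.09 to 0.12 for Bhlhe40 and Bhlhe41 and from -0.17 to 0.12 for Per3 and Dbp. The causes were not tested. The component removal and the 2 score covariates were added after the data were seen.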
